A study of Mus musculus with 11 samples.

Results

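The 42 genes described here encode proteins that cells use in late G2 phase and in mitosis: the CDK1 module, mitotic kinases, checkpoint and kinetochore proteins, spindle motors and cytokinesis factors. They were taken by symbol from a named list, and all 42 were present among the 23444 rows of the expression table. All 42 also passed the filter on low values (at least 1 FPKM in at least 2 libraries), as did 11442 rows in all. FPKM counts fragments relative to transcript length and to the fragments mapped in the library.

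The libraries were made from C57BL/6 mouse bone marrow cells selected on beads for Kit (CD117), the stem cell factor receptor of blood progenitors, and cultured with mSCF, FLT3, IL-3 and IL-6. The cells were transduced with a virus carrying BCR/ABL (the kinase fusion that causes chronic myeloid leukaemia) and a yellow fluorescent protein, and positive cells were sorted. Wild-type cells with BCR/ABL were left untreated (2 libraries) or were treated for 4 h with the BCR/ABL inhibitor imatinib (2 libraries), with DFC and BCI together (2 libraries) or with imatinib, DFC and BCI (2 libraries). DFC and BCI were used as inhibitors of c-Fos and Dusp1. A vector control without BCR/ABL was measured in 1 library, and its preparation is not described in the sources used here. BCR/ABL cells labelled c-Fos-/-Dusp1-/-, from mice with a floxed c-Fos gene, a Cre-ERT2 transgene at the ROSA locus and a constitutive loss of Dusp1, were measured in 1 untreated library and 1 library with imatinib. The induction of Cre is not described in the sources either, and no group is labelled as given vehicle alone. Nothing in the labels says that duplicates came from separate animals or cultures, so p-values measure the spread between these libraries, which may be technical.

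As background, entry into mitosis is driven by cyclin B bound to CDK1, which CDC25 phosphatases activate. Exit requires the anaphase-promoting complex (APC/C), a ubiquitin ligase that the spindle checkpoint holds back until every kinetochore is attached to microtubules. The genes of this programme are transcribed together late in the cycle: MuvB-containing complexes and FOXM1 act through short promoter elements called CHRs, and NF-Y acts through CCAAT boxes. In blood progenitors their RNAs mark dividing cells. In RNA from bulk cells, fewer cells in G2 or mitosis and less of the RNA per cell cannot be told apart.

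Facts that bear on every comparison are few. Read depth is unknown, since the table holds no counts, and the summed FPKM per library ranged from 459559 to 529427. Between duplicates, the 42 genes differed by a median of 0.07 to 0.13 on the log2(FPKM + 1) scale, with the largest gap at 0.31, for Plk1 in the untreated pair. In 2 pairs most of these genes shifted together. Imatinib library a was above b for 34 of the 42 (median difference 0.07, against -0.03 over all genes). DFC+BCI library a was above b for only 8 (-0.08, against -0.01). The first library was the higher for 17 in the untreated pair and for 22 in the 3-drug pair. Myeloid marker RNA was abundant: summed over 7 neutrophil marker genes the level was 3443 FPKM in the vector library and 13807 to 25194 FPKM in the 8 wild-type BCR/ABL libraries, while 3 B lymphoid markers summed to at most 0.678 FPKM in any library. The neutrophil list was split. Untreated BCR/ABL minus vector was 3.33, 3.24, 3.83 and 4.10 on the log2 scale for S100a8, S100a9, Ngp and Camp. It was -1.64, -0.21 and -0.11 for Mpo, Ctsg and Elane. Kit itself stood at 34.5 FPKM in the vector library and at 11.5 and 11.7 FPKM in untreated BCR/ABL cells. Fos was at 5.09 and 4.81 FPKM in the untreated wild-type libraries but at 21.6 and 15.9 FPKM in the 2 libraries labelled deleted. Dusp1 was at 8.22 and 8.46 FPKM against 35.7 and 28.1 FPKM. These levels are higher, not lower, in the libraries labelled deleted, but values per gene cannot separate reads over an undeleted part of a gene. Whether the deletion took place was not tested, so the groups are called "the libraries labelled deleted" throughout. With DFC+BCI, Fos was at 29.1 and 30.9 FPKM (log2 fold change 2.38, limma adjusted p = 6.5e-06). Dusp1 was at 120 and 133 FPKM (3.77, adjusted p = 2.63e-06), so the RNA of both intended targets rose.

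Levels ran from 5.16 FPKM, for G2e3 in the untreated library labelled deleted, to 179.5 FPKM, for Cks2 in an imatinib library. Averaged over all libraries, 3 genes lay above 100 FPKM, 37 between 10 and 100 and 2 below 10. Cks2, a small CDK-binding subunit, was the most abundant at 142.6 FPKM, followed by Ube2c, the ubiquitin-conjugating enzyme of the APC/C, at 121 FPKM and Top2a, the topoisomerase that untangles sister chromosomes, at 117 FPKM. Cenpf, a kinetochore-associated protein, averaged 7.90 FPKM and G2e3, a ubiquitin ligase gene named for its expression in G2 phase, 7.74 FPKM. Summed over the 42 genes, the level was 2019 and 2027 FPKM in untreated BCR/ABL cells, 2117 and 2022 FPKM with imatinib, 1590.5 and 1697 FPKM with DFC+BCI and 1689 and 1665 FPKM with all 3 drugs. The vector library stood at 1507 FPKM, the untreated library labelled deleted at 1152 FPKM and its imatinib counterpart at 1420.2 FPKM. The 4 libraries with DFC+BCI thus all lay below the 4 wild-type BCR/ABL libraries without it.

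**Figure D1:**
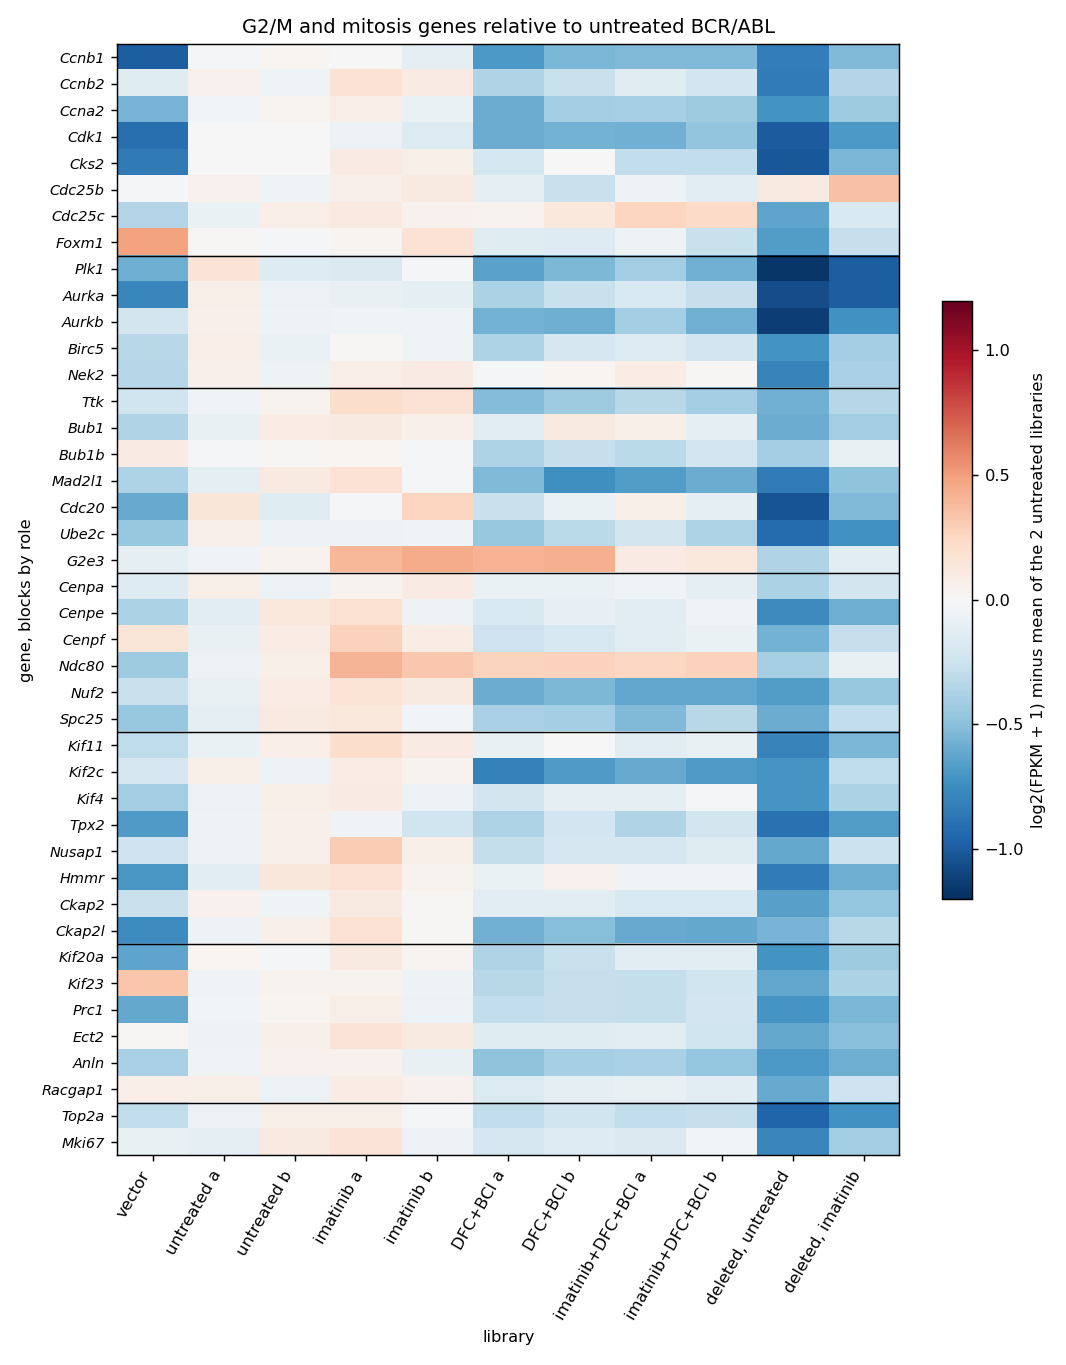
Colour gives log2(FPKM + 1) of each of the 42 genes (rows, in blocks by role) in each of the 11 libraries (columns), minus the mean of the 2 untreated BCR/ABL libraries. The 4 columns with DFC+BCI are mostly blue, the imatinib columns are near white or pale red, and the untreated library labelled deleted is the bluest; G2e3 and Ndc80 stand out in red.

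The promoters of these genes carry the elements for which the programme is known. RefSeq promoter windows on GRCm38.p6, from 250 bases before to 50 bases after the start, were found for 36 of the 42 genes. Those of Ccna2, Cdc25c, Foxm1, Aurkb, Tpx2 and Kif20a were not used here. The CHR words TTTGAA and TTCGAA, searched on both strands, were present in 27 of the 36 windows (75%), against 19.2% of 32851 windows of the same length over all genes. CCAAT, also on both strands, was present in 28 of 36 (77.8%), against 37.4% of all windows. Both elements occurred in 24 (66.7%), against 7.52%. Birc5, Mad2l1, Nuf2, G2e3 and Nusap1 had neither. A match of letters is a description of the window and not a bound site.

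The 150 bases before the RefSeq start are given below for 7 genes, 5 with one or both elements and 2 (Nuf2 and G2e3) with neither, because these moved in opposite directions under DFC+BCI. Of the other 5, all but Cdc20 fell with DFC+BCI. In the GRCm38 gene annotation G2e3 begins at chr12:51348061, so its stretch lies wholly inside the annotated gene. Its lack of both elements therefore holds only for the RefSeq window. The stretches of Cdk1, Ccnb1, Ube2c and Cdc20 overlap their annotated genes in part. Capitals mark CHR words (TTTGAA or TTCGAA, or TTCAAA on the other strand) and CCAAT (or ATTGG on the other strand); no marked words overlap. On chromosomes 10, 13, 2, 4, 1 and 12 the stretches lie at chr10:69352913-69353062 (Cdk1, minus strand), chr13:100786487-100786636 (Ccnb1, minus strand), chr2:129297213-129297362 (Ckap2l, minus strand), chr2:164769779-164769928 (Ube2c, plus strand), chr4:118437344-118437493 (Cdc20, minus strand), chr1:169531465-169531614 (Nuf2, minus strand) and chr12:51348080-51348229 (G2e3, plus strand).
Cdk1: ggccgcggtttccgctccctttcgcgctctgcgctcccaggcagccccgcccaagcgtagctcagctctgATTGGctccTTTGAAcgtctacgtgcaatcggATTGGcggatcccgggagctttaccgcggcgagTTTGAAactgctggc
Ccnb1: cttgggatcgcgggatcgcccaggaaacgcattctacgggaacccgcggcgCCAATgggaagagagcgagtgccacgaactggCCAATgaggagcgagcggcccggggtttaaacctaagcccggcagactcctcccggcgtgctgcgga
Ckap2l: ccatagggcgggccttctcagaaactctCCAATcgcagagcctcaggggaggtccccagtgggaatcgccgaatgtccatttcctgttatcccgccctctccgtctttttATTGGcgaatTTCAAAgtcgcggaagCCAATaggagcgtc
Ube2c: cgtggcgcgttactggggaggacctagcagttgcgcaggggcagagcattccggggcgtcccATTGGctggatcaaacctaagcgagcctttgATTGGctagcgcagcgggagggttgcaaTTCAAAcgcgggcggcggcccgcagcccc
Cdc20: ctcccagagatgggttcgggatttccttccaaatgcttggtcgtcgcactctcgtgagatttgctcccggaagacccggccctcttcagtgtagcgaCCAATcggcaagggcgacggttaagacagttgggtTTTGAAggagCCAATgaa
Nuf2: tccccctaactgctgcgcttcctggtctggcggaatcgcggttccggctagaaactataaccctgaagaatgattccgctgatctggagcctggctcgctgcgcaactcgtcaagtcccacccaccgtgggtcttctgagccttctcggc
G2e3: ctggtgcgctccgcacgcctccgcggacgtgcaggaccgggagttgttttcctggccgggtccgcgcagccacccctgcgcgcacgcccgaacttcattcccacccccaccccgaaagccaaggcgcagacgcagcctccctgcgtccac

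With DFC+BCI for 4 h, 22 of the 42 genes fell and 2 rose, and 18 did not pass the test. Over all 11442 genes 18.4% fell and 17.8% rose (limma, adjusted p under 0.05). The median log2 fold change of the 42 was -0.28, against -0.03 over all genes tested, and 39 of the 42 values were below 0. Every library with DFC+BCI lay below both untreated libraries for 32 of the genes and above both for 2, against 38.1% and 31.4% of all genes. The fall was shallow: the largest, in Kif2c, was 0.75 on the log2 scale. The number called depends on how the libraries are scaled. Summed FPKM was lower in the DFC+BCI libraries than in the untreated ones. With all libraries set to the same total, 12 genes fell instead of 22, and all genes split into 2608 higher and 982 lower instead of 2041 and 2107. The medians then became -0.16 for the 42 genes and 0.07 for all genes. With quantile normalization 20 fell, against 18.9% of all genes, and with median-ratio scaling 18, against 15.2%. Without DFC+BCI library a, the median of the 42 genes was -0.24 (-0.03 over all genes).

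Among the 8 genes of the CDK1 module and mitotic entry, 4 fell with DFC+BCI: Ccnb1, Cdk1, Ccna2 and Ccnb2. The shares over all genes, 18.4% lower and 17.8% higher, are to be set beside the count of each role group that follows. Ccnb1 encodes cyclin B1. Its level was 98.1 and 102 FPKM untreated, 61.6 and 68.1 FPKM with DFC+BCI and 68.7 and 68.9 FPKM with all 3 drugs, so the groups with and without the pair did not overlap (log2 fold change -0.62 ± 0.070 SE for DFC+BCI, adjusted p = 0.00072). Cdk1, the kinase that cyclin B activates, was at 77.6 and 77.3 FPKM untreated and at 50.9 and 51.8 FPKM with DFC+BCI (-0.58 ± 0.061, adjusted p = 0.000525). These levels are about as far apart as those of its cyclin. Ccna2, the cyclin A of S phase and G2, fell by 0.51 (adjusted p = 0.0036), and Ccnb2, a second B-type cyclin, by 0.31 (adjusted p = 0.0121).

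The other 4 genes of that module did not pass. Cks2 was at 169 and 167 FPKM untreated and at 145 and 168 FPKM with DFC+BCI, so its duplicates spread across the gap between the groups. Cdc25b and Cdc25c, the phosphatases that activate CDK1, had log2 fold changes of -0.19 (adjusted p = 0.0871) and 0.09 (adjusted p = 0.412). Foxm1, the transcription factor of the programme, was at 13.4 and 13.1 FPKM untreated and at 11.9 and 11.8 FPKM with DFC+BCI (-0.15, adjusted p = 0.21). Among the promoter windows, CHR words were in 14 of 18 windows of genes that fell and in 13 of 18 of those that did not, and CCAAT in 13 of 18 and 15 of 18.

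Of the 5 mitotic kinases and their partners, 4 fell: Plk1, Aurkb, Aurka and Birc5. Plk1, the polo-like kinase of spindle assembly and mitotic entry, was at 62.2 and 50.2 FPKM untreated, wide apart for duplicates, and at 35.5 and 38.1 FPKM with DFC+BCI (-0.59 ± 0.11, adjusted p = 0.00689). Aurkb, the kinase of the chromosomal passenger complex, fell by 0.57 (adjusted p = 0.00123). Birc5 (survivin), which belongs to the same complex, was at 108 and 96.5 FPKM untreated and at 78.5 and 88.6 FPKM with DFC+BCI. Its smaller fall of 0.29 (adjusted p = 0.0315) lost its call in 8 of 15 alternative analyses. Aurka, the centrosomal aurora kinase, fell by 0.32 (adjusted p = 0.0133). Nek2, a centrosome kinase, gave 0.00 (adjusted p = 0.98).

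In the group of 7 spindle checkpoint and APC/C genes, 4 fell and 1 rose. Mad2l1 encodes MAD2, the checkpoint protein that sequesters the APC/C activator CDC20. It was at 49.8 and 58.0 FPKM untreated, 36.9 and 31.8 FPKM with DFC+BCI and 33.3 and 35.2 FPKM with all 3 drugs (-0.64 ± 0.11 for DFC+BCI, adjusted p = 0.00414). Ttk, the checkpoint kinase MPS1, fell by 0.47 (adjusted p = 0.00216) and Bub1b, which encodes BUBR1, by 0.32 (adjusted p = 0.00721). For Ube2c the values were 156 and 143 FPKM untreated against 109 and 119 FPKM (-0.39, adjusted p = 0.00806), again without overlap. Cdc20 itself was at 71.2 and 58.2 FPKM untreated and at 53.4 and 61.0 FPKM with the pair of drugs, and these groups overlapped (-0.17, adjusted p = 0.359). Bub1, a checkpoint kinase, gave -0.01 (adjusted p = 0.957). G2e3 was the gene that rose, from 6.71 and 7.15 FPKM to 9.61 and 9.67 FPKM (0.43 ± 0.064, adjusted p = 0.00252), a call that held in all 15 alternative analyses.

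Of the 6 centromere and kinetochore genes, 2 fell and 1 rose, against 18.4% and 17.8% of all genes. Ndc80, Nuf2 and Spc25, subunits of the NDC80 complex, which joins kinetochores to microtubules, did not move together. Nuf2 was at 25.2 and 28.6 FPKM untreated and at 17.5 and 18.1 FPKM with DFC+BCI (-0.57 ± 0.072, adjusted p = 0.00123). Its binding partner Ndc80 was at 17.6 and 19.4 FPKM untreated and at 22.4 and 22.7 FPKM with DFC+BCI (0.27 ± 0.068, adjusted p = 0.0191), so the pair of genes changed in opposite directions. Spc25, a subunit of the other end of the complex, fell by 0.40 (adjusted p = 0.0205), and Spc24, which is outside the 42 genes, was at 25.1 and 20.1 FPKM against 21.2 and 21.0 FPKM. The ratio of Ndc80 to Nuf2, singled out after the values were seen, was 0.698 and 0.678 untreated, 0.826 and 0.804 with imatinib, 1.28 and 1.25 with DFC+BCI and 1.30 and 1.32 with all 3 drugs. The call for Ndc80 was lost with quantile normalization and when certain single libraries were left out (adjusted p up to 0.0949). Cenpa, the histone variant of centromeres, was at 90.9 and 81.9 FPKM untreated and at 81.8 and 81.4 FPKM with DFC+BCI, so all its values lay close together (-0.08, adjusted p = 0.397).

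**Figure D2:**
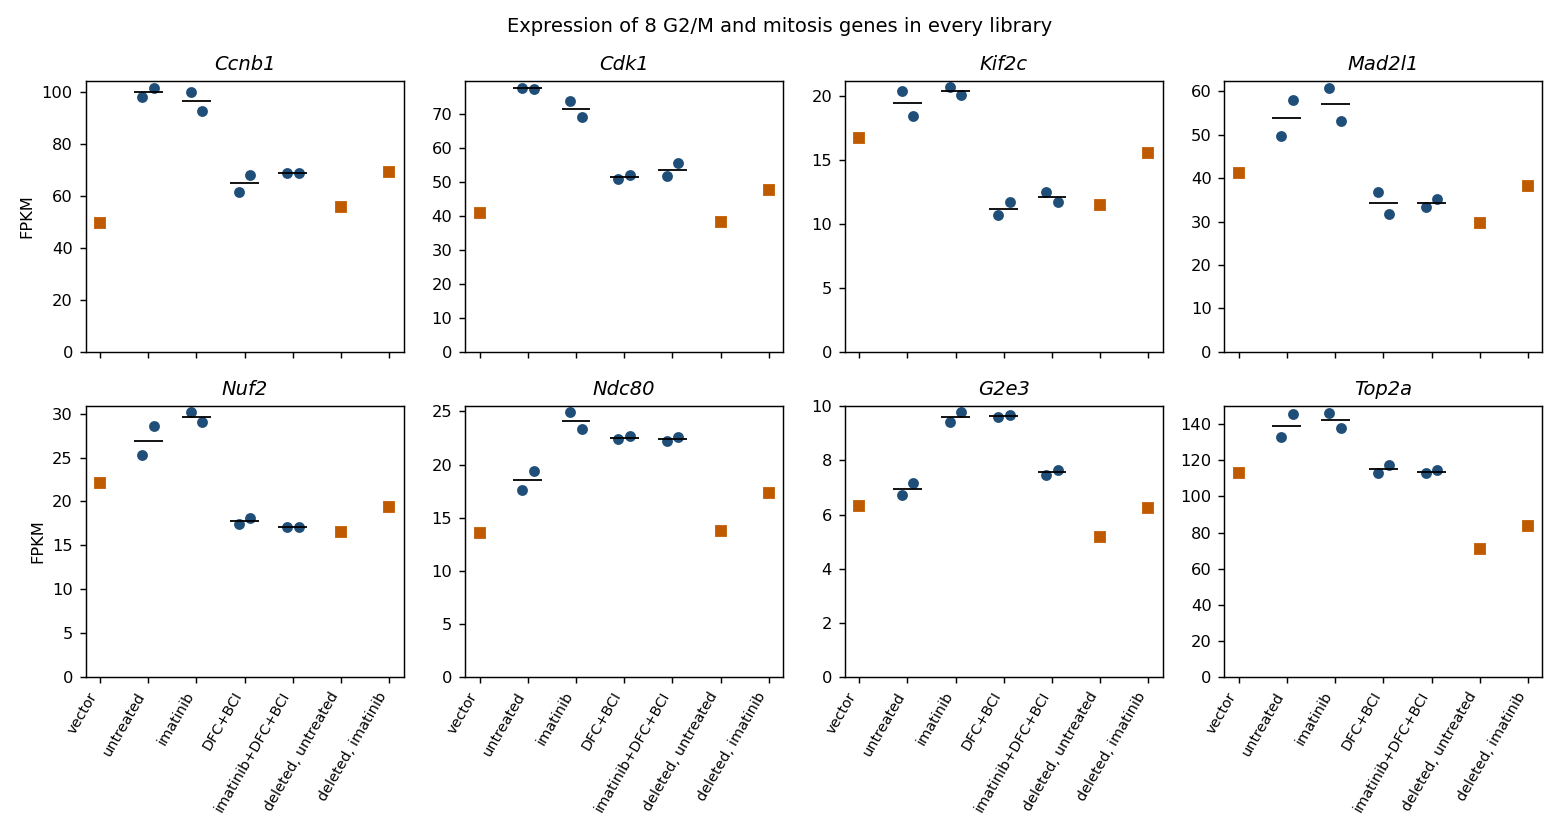
FPKM (linear axis from 0) of 8 genes in every library, with blue points for duplicated groups, black lines for group means and orange squares for groups of 1 library. Ccnb1, Cdk1, Kif2c, Mad2l1 and Nuf2 drop in both groups with DFC+BCI, Ndc80 stays above the untreated libraries in all 3 drug groups, and G2e3 is near 9.6 FPKM with either treatment alone and near 7.6 FPKM with all 3 drugs.

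Of 8 kinesins and spindle proteins, 3 fell. Kif2c, the microtubule-depolymerising kinesin MCAK that corrects wrong attachments, showed the largest fall of the 42 genes: 20.4 and 18.4 FPKM untreated, 10.7 and 11.7 FPKM with DFC+BCI and 12.5 and 11.7 FPKM with all 3 drugs (-0.75 ± 0.077 for DFC+BCI, adjusted p = 0.000479). Ckap2l, a spindle protein, went from 35.5 and 38.7 FPKM to 24.6 and 25.8 FPKM (-0.54 ± 0.075, adjusted p = 0.00179). Neither gene's groups overlapped. Tpx2, the spindle activator of aurora A, fell by 0.30 (adjusted p = 0.0431), a call lost in 10 of 15 alternatives. Kif11, the motor that pushes spindle poles apart, was at 46.4 and 52.2 FPKM untreated and at 46.1 and 49.3 FPKM with DFC+BCI (-0.04, adjusted p = 0.694), so its groups overlapped. Kif4, Nusap1, Hmmr and Ckap2 also did not pass, with log2 fold changes from -0.24 (Nusap1) to -0.01 (Hmmr).

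Of 6 cytokinesis genes, 4 fell. Anln, which encodes the contractile-ring scaffold anillin, fell by 0.44 (adjusted p = 0.00448), and the central-spindle kinesins Kif20a and Kif23 fell by 0.31 each (adjusted p = 0.0069 and 0.00992). Prc1, the bundler of central-spindle microtubules, was at 52.5 and 55.2 FPKM untreated and at 43.6 and 44.3 FPKM with DFC+BCI (-0.29 ± 0.067, adjusted p = 0.0141). Ect2 and Racgap1, which control RhoA at the division site, each gave -0.14 (adjusted p = 0.149 and 0.151). Of the remaining chromosome proteins, Top2a fell from 133 and 146 FPKM to 113 and 118 FPKM (-0.27 ± 0.067, adjusted p = 0.0186), and Mki67, the Ki-67 protein of mitotic chromosome surfaces, gave -0.18 (adjusted p = 0.221).

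The second comparison of DFC+BCI was made in cells that also received imatinib and shares no library with the first, although both draw on one estimate of the spread. Here 25 of the 42 genes fell and 0 rose, against 16% and 18.6% of all genes (limma, adjusted p under 0.05). The median was -0.26 (0.00 over all genes) and 41 values were below 0. The largest falls were in Nuf2 (30.2 and 29.0 to 17.1 and 17.1 FPKM, log2 fold change -0.76 ± 0.072, adjusted p = 0.000336), Mad2l1 (-0.72, adjusted p = 0.00256), Kif2c (-0.71, adjusted p = 0.00062) and Ckap2l (-0.70, adjusted p = 0.000608). G2e3, which rose with DFC+BCI alone, fell here by 0.31 (adjusted p = 0.00954), from 9.42 and 9.77 FPKM to 7.47 and 7.63 FPKM. Cks2 also fell here, from 179.5 and 176 FPKM to 137 and 137 FPKM (-0.38 ± 0.075, adjusted p = 0.00825). With equal library totals 12 genes fell, against 9.13% of all genes. Leaving out imatinib library a, the first or the second 3-drug library gave medians of -0.24, -0.25 and -0.27 for the 42 genes.

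The same 18 genes fell in both comparisons, which is 81.8% of the 22 and 72% of the 25. Among all genes 1256 fell in both, which is 59.6% of 2107 and 68.7% of 1828. Genes that fell in both were spread over the roles, from Ccnb1, Cdk1 and Plk1 to Nuf2, Kif2c, Anln and Top2a. With equal library totals 11 genes fell in both, and leaving out imatinib library a, DFC+BCI library a or the first 3-drug library gave 9, 10 and 11. Across the 15 alternatives, 11 of 24 calls in the first comparison and 10 of 25 in the second were kept in every one, and no call reversed.

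**Figure D3:**
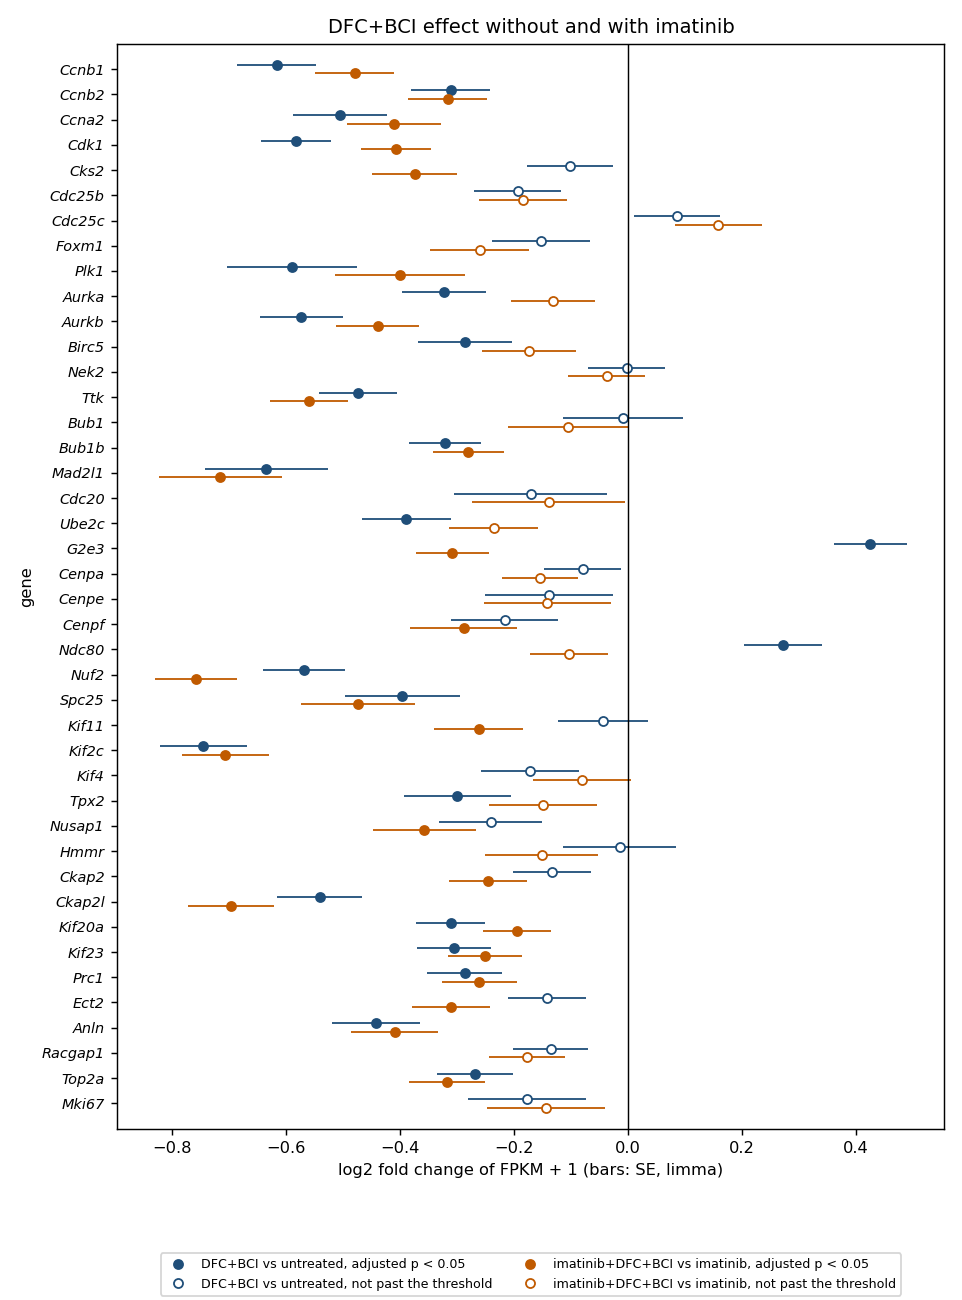
Log2 fold changes of FPKM + 1 with standard errors for the 42 genes, for DFC+BCI against untreated (blue) and for all 3 drugs against imatinib (orange), with filled points for adjusted p under 0.05. Most points lie between -0.8 and 0 in both comparisons, and G2e3 lies at 0.43 in one and at -0.31 in the other.

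Relative to untreated cells, with all 3 drugs together 19 of the 42 genes fell and 2 rose, against 15.6% and 17.2% of all genes. The median was -0.19 (-0.01 over all genes). Kif2c (-0.64, adjusted p = 0.000965), Mad2l1 (-0.63, adjusted p = 0.00449), Nuf2 (-0.62, adjusted p = 0.000828) and Ckap2l (-0.61, adjusted p = 0.00114) fell most. The genes that rose were Ndc80 (0.26, adjusted p = 0.0236) and Cdc25c, at 9.96 and 11.2 FPKM untreated and 12.8 and 12.6 FPKM with the 3 drugs (0.25 ± 0.076, adjusted p = 0.0436). The count of falls dropped to 10 with equal library totals and to 12 with only the compared groups in the fit. The shares over all genes in these settings were 8.63% and 9.82%. Without the first or the second 3-drug library the median of the 42 genes was -0.23 and -0.19. This comparison uses the same untreated libraries as that of DFC+BCI alone.

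Adding imatinib to DFC+BCI changed 0 of the 42 genes in either direction by limma, against 0.105% lower and 0.00874% higher over all genes. The median was 0.05. The 3-drug libraries lay above both DFC+BCI libraries for 8 genes and below both for 5, against 24.1% and 18.3% of all genes, and the groups overlapped for the other 29. Values of Ccnb1 (61.6 and 68.1 against 68.7 and 68.9 FPKM) and Kif2c (10.7 and 11.7 against 12.5 and 11.7 FPKM) are examples of small differences. The largest change was in G2e3, at 9.61 and 9.67 against 7.47 and 7.63 FPKM (log2 fold change -0.32, adjusted p = 0.216).

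Imatinib alone for 4 h moved few of these genes past the test. Of the 42, 2 rose and 0 fell, against 0.481% and 1.63% of all genes. The median was 0.07 (-0.01 over all genes). G2e3 rose to 9.42 and 9.77 FPKM (0.42 ± 0.064, adjusted p = 0.0266) and Ndc80 to 24.9 and 23.3 FPKM (0.37 ± 0.068, adjusted p = 0.0457). Neither call is stable: both were lost with equal library totals, with only the compared groups in the fit, and with any 1 of the 8 libraries left out, with adjusted p up to 0.204 for G2e3 and 0.274 for Ndc80. For Ccnb1 the values with imatinib were 100.03 and 92.9 FPKM, and for Plk1 49.6 and 54.9 FPKM, both overlapping the untreated pair. Imatinib libraries lay above both untreated libraries for 13 genes and below both for 2, Cdk1 and Aurka, against 18.7% and 20.6% of all genes.

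The effect of imatinib depended on DFC+BCI for 1 gene of 42. G2e3 was near 7 FPKM untreated, near 9.6 FPKM with imatinib or with DFC+BCI, and at 7.47 and 7.63 FPKM with both, and the interaction was -0.73 ± 0.091 (adjusted p = 0.0487). Over all genes 0.0612% passed in that direction and 0.0874% in the other. The call was lost in 11 of 15 alternatives, including without any 1 of the 8 libraries, with values between -0.81 and -0.69.

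Several lists of cell type markers were lower in the 4 libraries given DFC+BCI. Summed over 6 stem and progenitor markers the level was 129 to 141 FPKM in the 4 wild-type BCR/ABL libraries without DFC+BCI and 83.7 to 96.0 FPKM in the 4 with it, and 5 of the 6 fell with DFC+BCI alone. Of all genes 18.4% fell with DFC+BCI alone, a share to set beside each count here. The sum over 7 neutrophil markers was 22653 to 25194 FPKM without and 13807 to 14947 FPKM with DFC+BCI, and 4 of 7 fell. Monocyte and macrophage markers (3 of 4 fell) went from 1692 to 1723 FPKM down to 1162 to 1289 FPKM, and mast cell and basophil markers (3 of 4 fell) from 499 to 567 FPKM down to 425 to 446 FPKM. The sum over 3 eosinophil markers was 22.0 to 24.5 FPKM without and 14.3 to 15.1 FPKM with DFC+BCI. Of these, Prg2 and Ear2 fell with DFC+BCI alone and Epx did not pass. Of 3 megakaryocyte markers 0 passed, with sums of 647 to 713 FPKM without and 616 to 704 FPKM with DFC+BCI. Of 4 erythroid markers 1 fell, with a median log2 fold change of 0.21 and sums of 10.6 to 23.9 FPKM without and 9.15 to 22.9 FPKM with it. None of these markers was at 0 in all libraries. Their part in the fall of the mitosis genes was not tested.

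Related gene lists, kept apart from the 42 members but also chosen with earlier results of these data known, are set beside these falls as description. Over all genes 18.4% fell and 17.8% rose with DFC+BCI, shares to set beside each count here. Of 28 other spindle and cytokinesis genes, 10 fell and 2 rose with DFC+BCI (median -0.18). The chromokinesin gene Kif22 fell by 0.63 (adjusted p = 0.00058), from 37.5 and 33.9 FPKM to 22.1 and 23.2 FPKM, and Cdca3 fell by 0.47 (adjusted p = 0.00302). Stil, needed for centriole duplication, rose by 0.72 (adjusted p = 0.000862). Of 35 other kinetochore and checkpoint genes 5 fell and 5 rose (median -0.09), with the outer-kinetochore gene Ska2 at -0.63 and the centromere gene Cenpp at 0.52. Of 17 APC/C subunits and activators, 5 fell and 1 rose. Cdc26 showed the largest of these falls, 0.80 (adjusted p = 0.000324). Of 16 condensin and cohesin genes 1 fell, the securin gene Pttg1 (-0.40), and 4 rose, among them Ncapg (0.35).

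Of 16 genes listed as checkpoint genes or brakes on CDK1 and the G2-to-M step, 9 rose, 1 fell and 6 did not pass with DFC+BCI (median 0.64). The shares over all genes were 17.8% higher and 18.4% lower. Wee1 and Pkmyt1, the kinases that inhibit CDK1 directly, were among those that did not pass (-0.03, adjusted p = 0.839, and 0.11, adjusted p = 0.733). Gadd45g, a stress-induced gene whose protein binds CDK1, was at 9.43 and 9.78 FPKM untreated and at 87.9 and 79.5 FPKM with DFC+BCI (log2 fold change 3.00, adjusted p = 6.5e-06). Plk2, a stress-responsive polo-like kinase, went from 10.1 and 11.3 FPKM to 92.7 and 85.5 FPKM (2.94, adjusted p = 3.27e-06). Plk3, a second such kinase, rose by 2.43, and Gadd45a by 2.12. The gene that fell was Ccnf (-0.37, adjusted p = 0.0116), the F-box cyclin.

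Regulators of the programme moved in both directions. Of 22 MuvB, MYB-family, E2F and NF-Y genes 4 rose and 5 fell (median 0.02), close to the shares over all genes (17.8% and 18.4%). This list holds Mybl2, the MYB gene of the cell cycle, and not Myb, which counts among the stem and progenitor markers and fell by 0.80 (adjusted p = 0.000525), from 35.3 and 33.4 FPKM to 18.8 and 19.9 FPKM. The MuvB subunits Lin54, which binds CHR elements, and Lin52 rose by 0.92 (adjusted p = 6.72e-05) and 0.88 (adjusted p = 0.00054). Lin54 was at 11.3 and 12.1 FPKM untreated and at 22.7 and 23.4 FPKM with DFC+BCI. E2f3 rose by 0.50 and E2f4 fell by 0.53. Of 20 DNA replication genes 7 fell and 2 rose (median -0.14): the cyclin E genes Ccne1 and Ccne2 fell by 0.60 and 0.36, whereas the licensing factors Cdc6 and Cdt1 rose by 0.50 and 0.66.

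The vector control, 1 library, has no replicate check, and a difference was counted when every pairing of libraries was at least 1 log2 unit apart and the higher reached 5 FPKM. By that rule 0 of the 42 genes were higher in untreated BCR/ABL cells and 0 were lower, against 3.32% and 4.68% of all genes, and at 1.5-fold 7 were higher, against 9.26%. The median difference was nevertheless 0.35 (0.00 over all genes), and the vector library lay below both untreated BCR/ABL libraries for 34 genes, against 44.2% of all genes. Ccnb1 was at 49.7 FPKM in the vector library against 98.1 and 102 FPKM, and Cdk1 at 40.8 FPKM against 77.6 and 77.3 FPKM. Levels in the vector library were above both for 5 genes, against 44% of all genes: Foxm1 (18.9 FPKM against 13.4 and 13.1 FPKM), Bub1b, Cenpf, Kif23 and Racgap1. The vector library also differed in makeup, with summed monocyte and macrophage markers at 7161 FPKM against 1704 and 1692 FPKM, mast cell and basophil markers at 1459 FPKM against 499 and 525 FPKM, and stem and progenitor markers at 262 FPKM against 141 and 129 FPKM. Their part in these differences was not tested.

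The untreated library labelled deleted had the lowest level of all 11 libraries for 37 of the 42 genes, against 25.7% of all genes. It lay below both untreated wild-type libraries for 41 of them, against 54.8% of all genes, the exception being Cdc25b (15.8 FPKM against 15.1 and 14.0 FPKM). By the fold rule 3 genes were lower and 0 higher, against 2.02% and 3.42% of all genes: Plk1 (24.3 FPKM against 62.2 and 50.2 FPKM), Aurkb (20.5 FPKM against 48.2 and 44.4 FPKM) and Cks2 (82.3 FPKM against 169 and 167 FPKM). The median difference was -0.71, against -0.13 over all genes, and with median-ratio scaling these became -0.55 and 0.01 and 0 genes passed the fold. At a 1.5-fold rule 28 genes were lower, against 9.64% of all genes, and without the second untreated library 6 passed the original rule, against 3.16%. Mast cell and basophil markers summed to 85.0 FPKM in this library against 499 and 525 FPKM, monocyte and macrophage markers to 5225 FPKM against 1704 and 1692 FPKM, and neutrophil markers to 13290 FPKM against 22653 and 23707 FPKM. Stem and progenitor markers summed to 68.9 FPKM against 141 and 129 FPKM. Their part in the lower levels was not tested, and library and genotype cannot be told apart.

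With imatinib, the library labelled deleted lay below both wild-type imatinib libraries for 41 of the 42 genes, against 50.2% of all genes (median -0.50, against -0.07). None passed the fold in either direction, against 1.28% lower and 1.88% higher over all genes, and at 1.5-fold 9 were lower, against 4.13%. Between the 2 libraries labelled deleted, all 42 genes were higher with imatinib, against 60% of all genes, by 0.08 to 0.50 on the log2 scale (median 0.29, against 0.05), and 0 passed the fold in either direction, against 0.105% higher and 0.271% lower. Ccnb1 was at 55.6 FPKM without and 69.1 FPKM with imatinib, Cdk1 at 38.3 and 47.7 FPKM, and Top2a at 70.9 and 83.7 FPKM. Summed mast cell and basophil markers were at 85.0 and 117 FPKM in the same order and neutrophil markers at 13290 and 14953 FPKM, with all 4 and all 7 genes higher with imatinib, whereas all 4 monocyte and macrophage markers were lower (5225 and 4301 FPKM summed). Summed stem and progenitor markers were at 68.9 and 75.9 FPKM, with Gata2 lower and the rest higher with imatinib. Their part in the pattern was not tested, and with single libraries it has no replicate check.

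**Figure D4:**
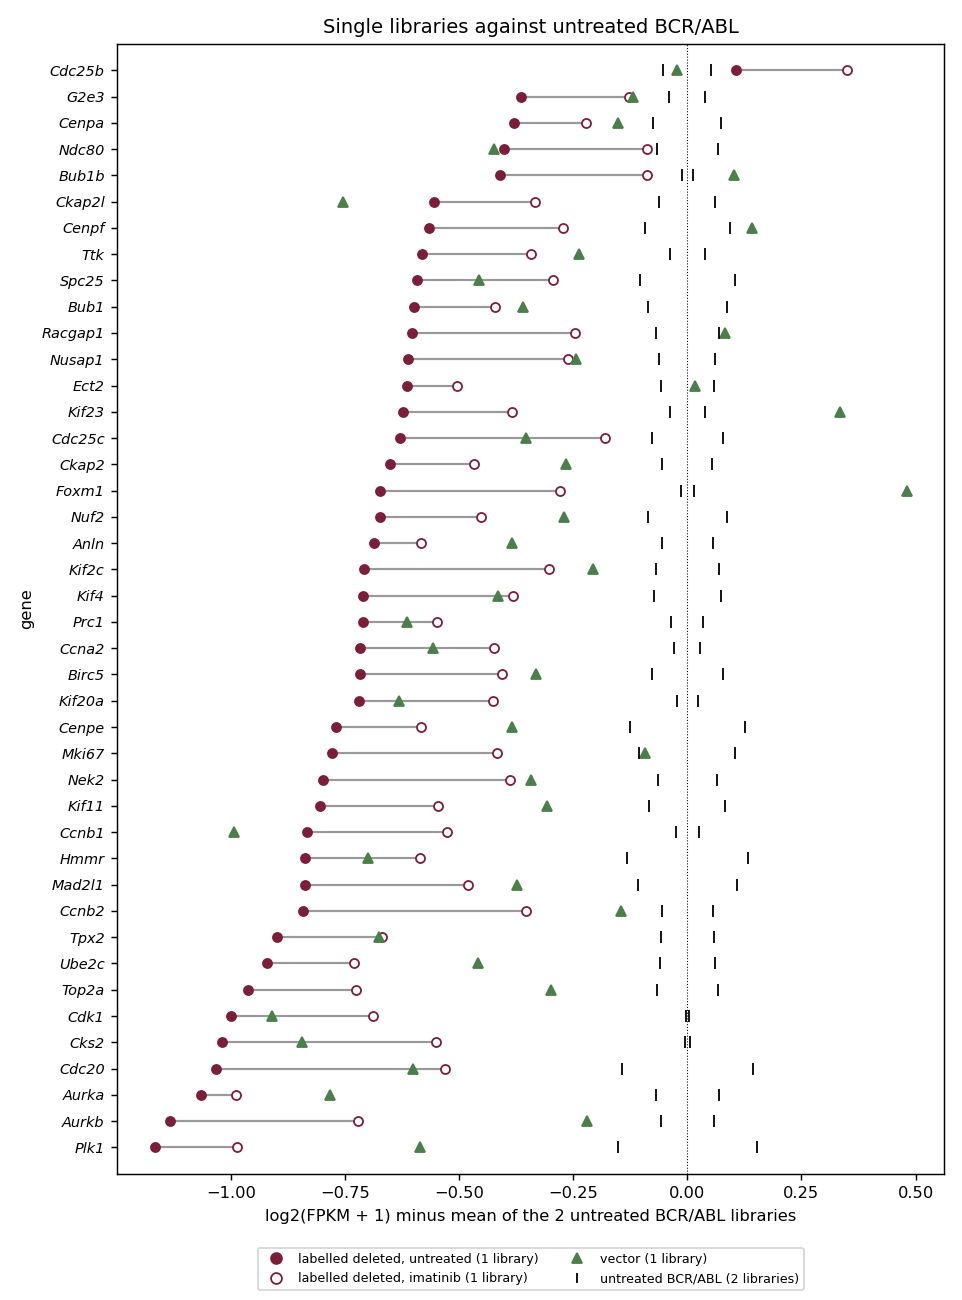
Log2(FPKM + 1) of the 42 genes in each group of 1 library, minus the mean of the 2 untreated BCR/ABL libraries, whose own values are the vertical ticks. Filled circles (untreated, labelled deleted) lie left of the ticks for every gene but Cdc25b, open circles (imatinib, labelled deleted) lie to the right of the filled ones, and triangles (vector) range from Ccnb1, where untreated minus vector is 0.99, to Foxm1, where it is -0.48.

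Some members share sequence with other genes. Exons of 14 of the 42 overlap those of another gene in the GRCm38 annotation, 12 of them on the opposite strand. The longest overlap is 1271 bases, between Kif20a and the APC/C gene Cdc23, and Prc1 with Rccd1 (911 bases), Kif4 with Pdzd11 (832 bases) and Ube2c with Tnnc2 (592 bases) follow. Whether counting used the strand is not stated in the sources, so reads of these pairs may not be separated. Ccnb1, Ccnb2 and Kif4 also have annotated pseudogene copies, which could take a share of their reads.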

How the data were processed

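RNA of 11 libraries was sequenced after stranded TruSeq mRNA preparation, per the labels' protocols. The submitters' processing notes name TopHat, Cufflinks and the mm10 build, without versions. Values deposited by the authors were taken as FPKM, since the header names no unit. Drug doses are not reported because their unit in the labels is in doubt. Cufflinks estimates carry no counts, so depth and counting error are unknown.

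Groups came from the labels. No rescaling was applied, and fold changes are those of log2(FPKM + 1), so changes of low genes are understated. Genes with at least 1 FPKM in 2 or more libraries (11442) were fitted with limma 3.58.1 (limma-trend, R 4.3.3) with 1 coefficient per group over all 11 libraries, which gave 4 residual degrees of freedom. Tests were 2-sided with Benjamini-Hochberg adjustment over all genes. Comparisons with groups of 1 library have no test. The code of the fits was run on simulated data with independent noise and no difference in scale between libraries. That run checks the code only and does not bear on how the libraries are scaled.

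The 42 members and all gene lists were chosen with earlier results of these data known. Values per library were given for up to 4 members with the largest rise or fall in each tested comparison and for the most abundant member of each role. Cdk1, Aurkb, Foxm1, Cdc20, Cdc25b, the Ndc80 to Nuf2 ratio and Spc24 were added after their values were seen, as were levels of genes flagged in the closing section. Related lists show up to 4 genes each by fold change, and Ccnf, Wee1, Pkmyt1 and Myb were added to these after their values were seen. Alternatives covered the pseudocount, the filter, scaling, the samples fitted and each library left out.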

Additional observations from a re-analysis of the deposited data

Results flagged for a closer look

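G2e3 was flagged because its response to imatinib differed with and without DFC+BCI by the test of the interaction: -0.73 on the log2 scale (limma, adjusted p = 0.0487), with imatinib above untreated in both duplicates and the 3-drug libraries below both DFC+BCI libraries. Cdk1 was flagged because both imatinib libraries lay below both untreated wild-type libraries (difference -0.12) while the imatinib library labelled deleted lay above its untreated counterpart (difference 0.31). The gap between these effects is 0.43 and was not tested, and the wild-type difference itself did not pass (adjusted p = 0.463). Aurka showed the same arrangement, with -0.10 in wild-type cells and 0.08 in the libraries labelled deleted, a gap of 0.18 that was not tested, and its wild-type difference did not pass either (adjusted p = 0.638). All 42 genes were higher with imatinib in the libraries labelled deleted, so the gap is not particular to these genes: Aurkb, at -0.05 in wild-type cells with overlapping duplicates, was at 0.41 there.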

How the results depend on the processing

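Over 15 alternatives (1 of them, equal summed FPKM, chosen after column totals were seen) no call of a member in a replicated comparison reversed. Fewer alternatives were run for single libraries. Medians over all genes did change sign in several settings, also when some single libraries were left out. Among these, equal summed FPKM moved them from -0.03 to 0.07 for DFC+BCI and from -0.01 to 0.07 for all 3 drugs against untreated. Quantile normalization moved them from -0.01 to 0.01 for imatinib and from 0.004 to -0.03 for all 3 drugs against imatinib. Median-ratio scaling moved that of the untreated library labelled deleted from -0.13 to 0.01. With equal summed FPKM, genes lower numbered 12 for DFC+BCI, 10 for all 3 drugs against untreated and 12 against imatinib. The shares over all genes were 8.57%, 8.63% and 9.13% in the same order. In both DFC+BCI comparisons 11 were lower, while genes higher with imatinib and the interaction went to 0. Fitting only the compared groups gave 12 lower and 0 higher for all 3 drugs against untreated, and 0 higher with imatinib. With quantile normalization genes higher numbered 1 with imatinib, 1 with DFC+BCI and 0 with all 3 drugs, the interaction gave 0, and 7 values were below 0 with imatinib. Median-ratio scaling gave 1 higher with imatinib, 0 with all 3 drugs and 0 for the interaction, and no filter gave 1 higher for each of the first 2 of these. For the untreated library labelled deleted, genes lower numbered 5 with a pseudocount of 0.1, 0 with quantile normalization, 0 with median-ratio scaling and 28 at 1.5-fold. At 1.5-fold, 9 were lower for its imatinib counterpart and 7 higher against vector. Leaving out each library gave 10 to 23 lower and 1 to 2 higher with DFC+BCI, 11 to 19 lower and 0 to 2 higher with all 3 drugs against untreated, 11 to 25 lower against imatinib, 9 to 17 lower in both DFC+BCI comparisons, 0 higher with imatinib with 7 to 19 values below 0, 0 for the interaction, 0 to 1 higher against vector and 4 to 6 lower for the untreated library labelled deleted. In the tested comparisons, fewer of all genes were also called whenever a library of the compared groups was left out. The cause of these moves was not tested, apart from fewer libraries in the fits that leave some out. No paired analysis was possible because the columns carry no replicate number that matches the labels. With FPKM alone, the part that depth plays cannot be read.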
